A study of Mus musculus with 6 samples.

Results

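The 10 genes described here encode the enzymes that build long-chain fatty acids from acetyl-CoA, lengthen them and introduce double bonds, namely Acly, Aacs, Acaca, Fasn, Elovl6, Elovl5, Scd1, Scd2, Fads1 and Fads2. They were picked by symbol out of 17463 genes in the table, and all 10 were among the 11277 genes that passed the filter on low counts. Erythroblasts that lacked TER119, a surface protein gained during erythroid maturation, were isolated from fetal livers of C57BL/6J mice and kept in Epo medium for 30 h, Epo (erythropoietin) being the hormone on which red cell maturation depends. For 3 samples the medium held 40 µM cholesterol (cholesterol 1 to 3), and for the other 3 none was added (control 1 to 3). The control samples are untreated according to the labels and vehicle-treated according to the study, whose methods add that TER119+ cells were sorted from the culture before sequencing. Both groups share the strain, the tissue and the culture time, and the number of fetuses behind a sample is not given in the sources used here. The comparison asks how mRNA levels differ in erythroblasts that receive excess cholesterol.

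In the cytosol, ATP citrate lyase (Acly) releases acetyl-CoA from citrate, acetyl-CoA carboxylase (Acaca) turns it into malonyl-CoA, and fatty acid synthase (Fasn) joins these units into palmitate. Elongases (Elovl) and desaturases (Scd, Fads) then shape the saturated, monounsaturated and polyunsaturated chains of membrane lipids. Transcription of many of these genes is known to depend on SREBP1 and SREBP2, membrane-bound factors whose release is held back when cells have ample sterol, and on the oxysterol receptor LXR, which raises Srebf1 and Scd1. Developing erythroblasts divide and remodel their membranes, which are built from these lipids.

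Total counts lay between 19826797 and 20061702 per sample, a gene with 3 counts stood at 0.15 CPM (the count relative to the TMM-scaled library size), and the smallest count of any of the 10 genes in a sample was 42. The 13 erythroid markers summed to 169600, 158000 and 211200 CPM in control 1 to 3 and to 142500, 148200 and 188900 CPM in cholesterol 1 to 3. The sum was thus lower with cholesterol in each pair, as were 12 of the 13 genes in all 3 pairs, against 20.1% of all genes tested. The summed levels of markers of other cells were highest in control 3. The 10 macrophage genes summed to 30.3, 90.7 and 297 CPM in control 1 to 3 and to 20.2, 38.9 and 108 CPM in cholesterol 1 to 3. The 10 granulocyte genes gave 70.4, 254 and 674 CPM against 40.6, 110 and 281 CPM. In the edgeR model with the sample number as a block, explained further on, 4 of 13 erythroid, 5 of 9 tested macrophage, 9 of 9 tested granulocyte and 3 of 3 tested mast cell genes fell with cholesterol, against 5.20% of all genes. By DESeq2 with the block, 4, 4, 7 and 3 genes of these lists were lower, against 2.33% of all genes. The hepatocyte genes, markers of the liver's own lipid-synthesizing cells, gave 160, 133 and 386 CPM against 280, 94.5 and 325 CPM. Sums for the 8 mast cell genes, of which Tpsb2 was at 0 in every sample, ran from 3.19 to 31.9 CPM in the control and from 1.28 to 5.27 CPM in the cholesterol samples. Globin genes made up 14.6%, 13.8% and 17.9% of the counts of control 1 to 3 and 12.5%, 13.0% and 16.2% of those of cholesterol 1 to 3, again lower in each pair. The part of these shifts in the results below was not tested. In bulk RNA, fewer cells of a type and less RNA per cell cannot be told apart. The labels do not say whether the 3 samples of a group came from separate cultures or animals, and the study speaks of independent experiments only for a set of panels as a whole, so the p-values may measure only the spread between these samples, which may be technical.

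The stretch just before the transcription start is shown for 3 of the genes, since Acly and Elovl5 fell in the paired model described below whereas Fasn did not pass its threshold. Sequences are those of RefSeq on GRCm38.p6, written 5′ to 3′ along the strand of the gene, and each covers 250 bases. That of Acly is chr11:100528001-100528250 on the minus strand, that of Fasn is chr11:120824548-120824797 on the minus strand, and that of Elovl5 is chr9:77917115-77917364 on the plus strand. Capitals mark matches, on either strand, to the CCAAT box (CCAAT), the GC box (GGGCGG) or the E-box (CACGTG), each a recognition sequence of general or lipid-related transcription factors.
Acly: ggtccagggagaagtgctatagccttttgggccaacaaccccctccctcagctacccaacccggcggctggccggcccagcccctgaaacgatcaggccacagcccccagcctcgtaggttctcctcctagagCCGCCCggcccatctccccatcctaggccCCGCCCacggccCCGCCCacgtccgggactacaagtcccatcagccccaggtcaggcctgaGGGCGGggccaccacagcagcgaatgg
Fasn: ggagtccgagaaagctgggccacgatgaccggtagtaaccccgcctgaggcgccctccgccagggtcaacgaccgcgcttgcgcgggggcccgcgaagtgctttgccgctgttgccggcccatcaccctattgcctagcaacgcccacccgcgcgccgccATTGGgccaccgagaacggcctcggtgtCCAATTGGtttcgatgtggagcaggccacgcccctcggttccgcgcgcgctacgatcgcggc
Elovl5: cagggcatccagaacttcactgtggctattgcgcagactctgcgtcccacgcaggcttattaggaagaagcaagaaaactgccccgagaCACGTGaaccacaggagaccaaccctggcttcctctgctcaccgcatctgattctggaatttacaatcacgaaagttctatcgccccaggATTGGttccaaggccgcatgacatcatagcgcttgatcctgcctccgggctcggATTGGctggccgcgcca
The Acly window held 4 GC boxes, the nearest starting 27 bases before the transcription start and the others 76, 88 and 117 bases before it. In Fasn there were CCAAT boxes 59, 62 and 90 bases before the start, of which the nearest pair share bases on opposite strands. Elovl5 had CCAAT boxes 17 and 71 bases and an E-box 161 bases before its start. Of the 10 genes, 7 matched an entry by symbol. Among the windows not shown, that of Fads2 had a GC box 186 bases before its start. Aacs and Elovl6, which like Fads2 also fell in the paired model, had none of these motifs, nor had Acaca. All 250 bases of the Acaca window and 243 of the Fads2 window lie inside the span that GENCODE gives the gene, downstream of its outermost start, and 59 bases of the Aacs window and 31 of the Elovl6 window also overlap their gene. A CCAAT box lay in 2 of these 7 windows and in 33.8% of all 32536 windows of this length, a GC box in 2 of 7 and in 33% of all, and an E-box in 1 of 7 and in 6.04% of all. The letters TCACNCCAC, a form of the sterol regulatory element, were in 0 of the 7 windows and in 1.04% of all windows, which says nothing on binding of SREBP elsewhere or to other forms of the element. The motif matches describe the letters only, and their part in the changes was not tested.

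With cholesterol, the level was lower for 8 of the 10 genes and higher for Scd1 and Scd2, and the median log2 fold change of the 10 was −0.48 against 0.0064 over all genes tested. In the edgeR model with condition alone, 0 of the 10 genes passed an adjusted p of 0.05, against 0.00887% of all genes tested (1 gene, the sterol exporter gene Abcg1, named after its values were seen). At an unadjusted p under 0.05, 3 of them were lower (Aacs, Elovl6 and Fads1), against 1.92% of all genes. DESeq2 with condition alone called 2 of the 10 lower, Aacs and Fads1, against 0.248% of all genes. Samples of the same number deviated together from their group means, so the number was also entered as a block. Values for samples of unlike number are not given, so a true pairing is not established, and the calls with the block depend on it. In this paired model, 5 of the 10 genes fell (Acly, Aacs, Elovl6, Elovl5 and Fads2) against 5.20% of all genes, and their median was −0.44 against 0.0059 over all genes. No member rose in either edgeR model, also at an unadjusted p under 0.05, or by DESeq2. Among so few genes this is near the share of all genes that rose in the paired model, 1.65%. DESeq2 with the block called 4 lower, the same genes except Elovl5, against 2.33% of all genes. Over 18 alternative settings, the models without and with the block together, Aacs passed in 6, Acly, Elovl6 and Fads2 in 5 each, Elovl5 in 3, Fads1 in 2 and Fasn in 1. Within the pairs, 6 of the 10 were lower with cholesterol in all 3, compared with 20.1% of all genes.

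**Figure D1:**
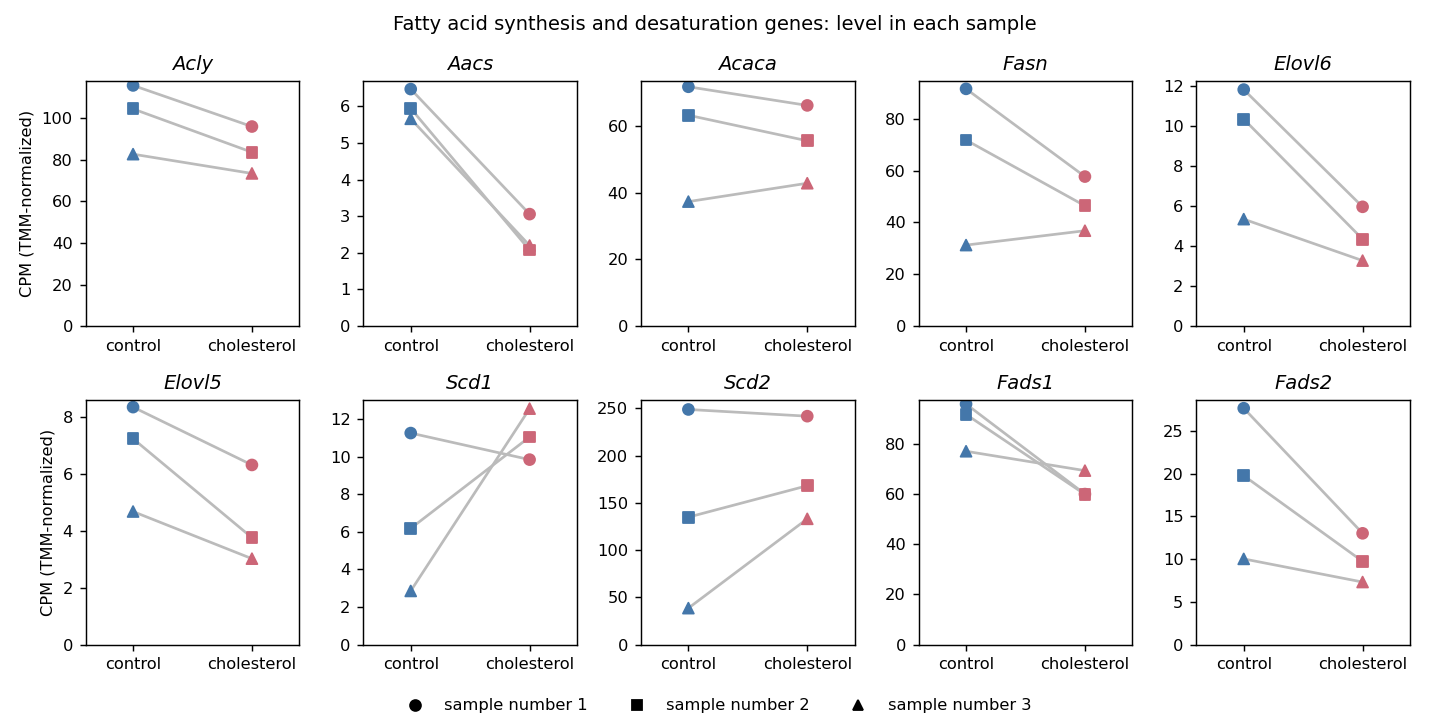
Level of each gene in the 6 samples, in CPM scaled by TMM on linear axes that start at 0, with control samples in blue and cholesterol samples in red. Grey lines join samples of the same number, marked by circles (1), squares (2) and triangles (3), and the groups separate for Aacs (5.66 to 6.47 CPM against 2.07 to 3.06 CPM) and Fads1 (77.0 to 95.8 CPM against 59.8 to 69.3 CPM).

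Per length, Scd2, Fads1 and Acly were the most abundant of the 10 transcripts. In the control samples the mean FPKM was 25.0 ± 18.6 for Scd2, 25.0 ± 3.41 for Fads1 and 22.2 ± 4.02 for Acly (SD, n = 3), values that did not differ beyond their spread. Fads2 stood next at 12.5 ± 5.82 FPKM, ahead of Acaca at 6.34 ± 2.08 and Fasn at 6.31 ± 3.04 FPKM, whose levels could not be ordered. Elovl5, Aacs, Elovl6 and Scd1 were lowest at 2.37 ± 0.685, 1.84 ± 0.147, 1.49 ± 0.571 and 1.36 ± 0.853 FPKM. The polyunsaturated desaturases and one of the Δ9 desaturases were thus more abundant than the synthase itself on this scale. With cholesterol, the top 3 were Scd2 at 32.8 ± 10.5, Acly at 18.9 ± 2.85 and Fads1 at 18.2 ± 1.22 FPKM. Of these, Acly and Fads1 did not differ beyond their spread. Aacs and Elovl6 were lowest at 0.763 ± 0.179 and 0.753 ± 0.236 FPKM. For Elovl5, the length that count and FPKM imply ran from 2343 to 2839 bases between samples, so its FPKM does not rest on 1 fixed length.

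The genes for the supply of activated acetyl units both fell with cholesterol in the paired model. Acetoacetyl-CoA synthetase (Aacs, chr5:125475814-125517410, plus strand) activates the ketone body acetoacetate in the cytosol for use in fatty acids and sterols. Its level was 6.47, 5.94 and 5.66 CPM in control 1 to 3 and 3.06, 2.07 and 2.198 CPM in cholesterol 1 to 3. All control samples lay above all cholesterol samples, as they did for 4.28% of all genes tested. The log2 fold change was −1.30 (SE 0.22), with an adjusted p of 0.9998 in edgeR with condition alone, 9.01e-05 with the block (fold change −1.31, SE 0.17) and 0.000869 in DESeq2 with condition alone. This was the lowest fold change of the 10 genes in both edgeR models, and differences within pairs were −1.08, −1.51 and −1.35. Acly (chr11:100476353-100528000, minus strand) was at 116, 105 and 82.8 CPM in the control samples and at 96.1, 83.7 and 73.5 CPM in the cholesterol samples. The groups overlapped, but the cholesterol sample was the lower one of each pair, with differences of −0.27, −0.32 and −0.17 on the log2 scale. Its log2 fold change was −0.26 in both models, with an SE of 0.15 with condition alone (adjusted p = 0.9998, edgeR) and of 0.048 with the block (adjusted p = 0.0022).

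The genes of the chain-building steps did not pass the threshold of either edgeR model. Acaca (chr11:84129672-84401651, plus strand), the rate-limiting carboxylase, was at 71.8, 63.2 and 37.3 CPM in the control samples and at 66.2, 55.6 and 42.8 CPM in the cholesterol samples. The difference was negative in pairs 1 and 2 and positive in pair 3, and the log2 fold change with the block was −0.05 (SE 0.067, edgeR adjusted p = 0.779). With condition alone it was −0.07 (SE 0.27), and it turned to values above zero when control 1, control 2 or cholesterol 3 was left out (0.13, 0.01 and 0.09). Fasn (chr11:120805846-120824547, minus strand), the multienzyme that makes palmitate, was at 91.6, 71.8 and 31.3 CPM against 57.7, 46.4 and 36.8 CPM. The difference was −0.67 and −0.63 on the log2 scale in pairs 1 and 2 and 0.24 in pair 3, in which control 3 was the lowest of the 6 samples. The log2 fold change of Fasn was −0.40 (SE 0.27) with the block (edgeR adjusted p = 0.586). With the block it was −0.24 without the samples numbered 1, −0.27 without those numbered 2 and −0.65 without those numbered 3, of which only the last passed the threshold. With condition alone it was −0.47 (SE 0.39) and ran from −0.80 to −0.13 with single samples left out, closest to zero without control 1.

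Elongation genes fell in the paired model. Elovl6 (chr3:129532355-129638495, plus strand) extends palmitate to stearate, and its level was 11.8, 10.4 and 5.35 CPM in control 1 to 3 and 5.96, 4.35 and 3.27 CPM in cholesterol 1 to 3. Every cholesterol sample was below its control partner, with log2 differences of −0.99, −1.25 and −0.70, although cholesterol 1 was above control 3. Elovl6 fell by 50.2% in the model with the block (log2 fold change −1.01, SE 0.14, edgeR adjusted p = 9.43e-05), and its log2 fold change of −1.02 (SE 0.36) with condition alone had an adjusted p of 0.9998. An antisense gene, Gm35986, overlaps it, and since the sources do not state that counting used strand, reads of the 2 genes may not be told apart. Elovl5 (chr9:77917364-77984519, plus strand) lengthens polyunsaturated chains made by Fads2. Its level was 8.34, 7.23 and 4.67 CPM in the control samples and 6.31, 3.75 and 3.02 CPM in the cholesterol samples, again lower in each of the 3 pairs. The model with the block gave −0.65 (SE 0.15, edgeR adjusted p = 0.0114), and DESeq2 with the block gave an adjusted p of 0.240. Elovl5 also lost the call in edgeR when the samples numbered 2 were left out (log2 fold change −0.50).

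The Δ9 desaturases, which place the first double bond in stearate and palmitate, were the only members with fold changes above zero, and their differences varied most between pairs. Scd1 (chr19:44394455-44407879, minus strand) was at 11.3, 6.19 and 2.86 CPM in control 1 to 3 and at 9.86, 11.1 and 12.6 CPM in cholesterol 1 to 3. Scd2 (chr19:44293674-44306864, plus strand), the paralog prominent in fetal tissues and 87.6 kb away on the same chromosome, was at 249, 135 and 38.5 CPM against 242, 168 and 133 CPM. In both genes the pairs differed in the same order, with −0.19, 0.84 and 2.13 for Scd1 and −0.04, 0.32 and 1.79 for Scd2 on the log2 scale. The log2 fold changes with the block were 0.78 (SE 0.61, edgeR adjusted p = 0.642) and 0.60 (SE 0.51, adjusted p = 0.680). With condition alone they were 0.72 (SE 0.46) and 0.36 (SE 0.62), and both moved when single samples were left out. Without control 1 they were 1.30 and 1.06, and without control 3 they were 0.36 and −0.08. Without cholesterol 1, Scd2 was at 0.096. Part of the counts of Scd1, Scd2 and Elovl6 in all 6 samples, and of Fads2 in 4, were not whole numbers. Which other genes shared those reads, paralogs or overlapping genes, was not tested, and these levels are uncertain to that extent.

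The spread of the Scd genes lay mainly in the control samples. The highest control sample of Scd2 was 6.46 times the lowest, compared with 1.82 times among the cholesterol samples, and a control range at least as wide was found in 3.66% of all genes tested. For Scd1 these ratios were 3.95 and 1.28, and 6.47% of genes had a control range at least as wide. Among the other members the control ratio was 2.93 for Fasn, 2.76 for Fads2 and 2.21 for Elovl6 and fell to 1.14 for Aacs. The range of the control samples was the larger one in 8 of the 10 genes, against 52.7% of all genes. In all 10 genes control 3 was the lowest control sample, and it was also the sample with the highest macrophage and granulocyte levels given above. The part of those cells in the fold changes was not tested, and their summed levels were also lower with cholesterol in pairs 1 and 2. With the block, 7 of the 10 genes fell without the samples numbered 3, against 4.64% of all genes tested. Without those numbered 1 or 2, 5 and 4 of the 10 passed, and 821 and 296 of all genes did. Each of these fits held only 4 samples.

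**Figure D2:**
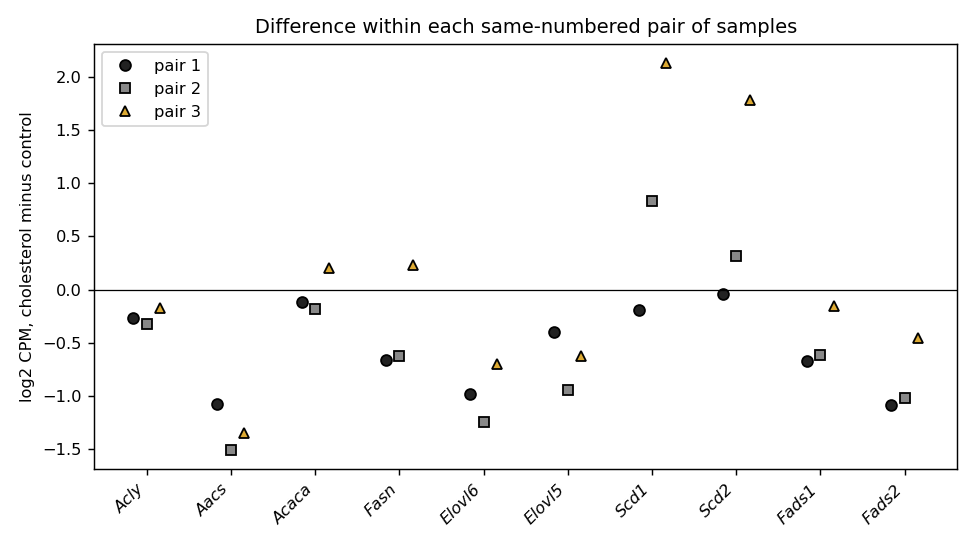
Difference in log2 CPM between the cholesterol and the control sample of each number, for the 10 genes in the order of the pathway, with circles, squares and triangles for pairs 1, 2 and 3. Points below the line at 0 are lower with cholesterol, which holds in all 3 pairs for 6 genes, while the triangles of Scd1 (2.13) and Scd2 (1.79) stand farthest above it.

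The polyunsaturated desaturases were both at lower mean levels with cholesterol, and Fads2 fell in the paired model. Fads2 (chr19:10062765-10101746, minus strand), the Δ6 desaturase that opens the pathway from linoleic and linolenic acid, was at 27.7, 19.8 and 10.02 CPM in control 1 to 3 and at 13.0, 9.73 and 7.31 CPM in cholesterol 1 to 3. Each cholesterol sample was the lower one of its pair, with log2 differences of −1.09, −1.02 and −0.45, although the groups overlapped through control 3. Fads2 fell by 46.5% in the model with the block (log2 fold change −0.90, SE 0.11, edgeR adjusted p = 0.000169). Fads1 (chr19:10182888-10196877, plus strand), the Δ5 desaturase that follows it and lies 81.1 kb away, was at 95.8, 91.7 and 77.0 CPM against 59.9, 59.8 and 69.3 CPM. Here the groups did not overlap, and the log2 fold change was −0.48 in both edgeR models. Its adjusted p was 0.9998 with condition alone and 0.138 with the block in edgeR, and 0.0419 and 0.109 in DESeq2. The pair differences of −0.68, −0.62 and −0.15 were smallest in pair 3, as they were for Fads2. Without the samples numbered 3, Fads1 was at −0.65 and passed with the block, in a fit to 4 samples. It did not pass without those numbered 1 or 2 (−0.38 and −0.42).

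**Figure D3:**
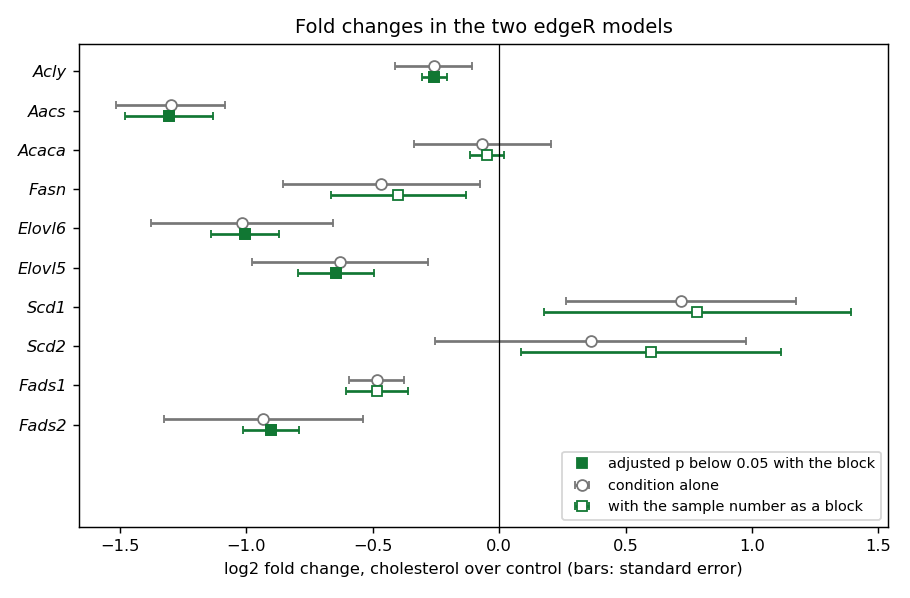
Log2 fold change of each gene, cholesterol over control, with bars of 1 standard error, in the edgeR model with condition alone (grey circles) and with the sample number as a block (green squares, filled where the adjusted p was below 0.05). The 5 filled squares (Acly, Aacs, Elovl6, Elovl5, Fads2) lie between −1.31 and −0.26, and only Scd1 and Scd2 lie above 0.

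Averaged over the 10 genes, the level was 5.17, 4.82 and 4.01 in log2 CPM in control 1 to 3 and 4.62, 4.29 and 4.10 in cholesterol 1 to 3. The group means were 4.67 ± 0.59 and 4.34 ± 0.26 (SD, n = 3), which differ by less than the spread of the control samples. Pairs 1 and 2 differed by −0.55 and −0.53 and pair 3 by 0.09, the pair in which Scd1 and Scd2 differed by 2.13 and 1.79. For comparison, the mean over 20 enzymes of cholesterol synthesis was lower in every pair, with differences of −1.60, −1.36 and −0.73 on the log2 scale.

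Across the 6 samples, each centred on its mean log2 CPM, Elovl6 and Fads2 were each other's nearest profile among all genes considered, with a root mean square difference of 0.121. The profile closest to Elovl6 after that was Sqle, squalene epoxidase of the sterol pathway, at 0.129, followed by Pcyt2 of phosphatidylethanolamine synthesis at 0.142. Those next to Fads2 were Pcyt2 at 0.134 and Lss, lanosterol synthase, at 0.136. For Aacs the nearest were Serinc2 at 0.143, the sterol pathway gene Hsd17b7 at 0.153 and Srebf2 at 0.199. Elovl5 was nearest to Me1 (0.114), a source of NADPH for chain synthesis, and Fads1 to Acsl4 (0.056), which activates arachidonic acid. Acly, Acaca and Fasn lay closest to genes outside the lipid lists, namely Paox (0.012), Plxna2 (0.041) and Usp28 (0.126). Scd1 and Scd2 had no profile as near, with Dnase1 at 0.33 and Magee2 at 0.217 as their closest, and the pair of members least alike was Aacs and Scd1 at 1.258. These distances describe 6 libraries of like depth whose cell and globin content differed as given above, and genes with a mean under 1 CPM were not considered.

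Of 42 other genes of fatty acid synthesis, 41 were in the table and 33 were tested. Their median log2 fold change was −0.10 in both models, and 9 of them fell with the block against 5.20% of all genes, while 16 were lower in all 3 pairs against 20.1%. The same model in DESeq2 called 6 lower, against 2.33% of all genes. With condition alone, edgeR and DESeq2 called 0 of the 33, against 0.00887% of all genes in edgeR and 0.248% called lower in DESeq2. At an unadjusted p under 0.05 in edgeR, 5 were lower, against 1.92% of all genes. Of these 9, 4 supply precursors or NADPH. Idh1, the cytosolic NADPH-producing isocitrate dehydrogenase, was at 7.08, 5.65 and 7.73 CPM in the control and at 2.32, 2.77 and 4.70 CPM in the cholesterol samples, with no overlap (−1.09 with the block, edgeR adjusted p = 0.000583). Slc25a1, which exports citrate from mitochondria as the substrate of Acly, was at 37.3, 31.9 and 18.6 CPM against 21.7, 17.3 and 14.2 CPM (−0.70 with the block, adjusted p = 9.73e-05, edgeR). Malic enzyme (Me1) changed by −0.60 and Pgd of the pentose phosphate pathway by −0.30, and both passed with the block (edgeR adjusted p = 0.00217 and 0.000185). DESeq2 with the block did not call Me1 (adjusted p = 0.0584).

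The remaining genes of this kind that fell act in the elongation cycle, in electron transfer or in acyl-CoA formation. The ketoreductase Hsd17b12 and the enoyl reductase Tecr, which complete each round begun by an elongase, changed by −0.41 and −0.21 with the block (edgeR adjusted p = 0.00238 and 0.00588), and DESeq2 with the block did not call Hsd17b12 (adjusted p = 0.119). The dehydratase Hacd4 changed by −1.03 (adjusted p = 0.0103 in edgeR and 0.221 in DESeq2, both with the block), and its level was 1.42, 2.03 and 6.64 CPM in control 1 to 3 and 0.838, 0.988 and 2.96 CPM in cholesterol 1 to 3, highest in control 3 and cholesterol 3 as the macrophage and granulocyte genes were. Their part in its change was not tested. Cyb5b, a cytochrome b5, changed by −0.45 (edgeR adjusted p = 7.10e-05). Acsl4 was at 33.6, 34.2 and 29.3 CPM in the control and at 23.3, 23.8 and 26.2 CPM in the cholesterol samples (−0.41, edgeR adjusted p = 0.00307). Some relatives of the members were too low to test, among them Acacb, Elovl2, Elovl3, Elovl4 and Scd4, with at most 15.2 counts in any sample.

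The 14 tested genes of transcriptional control had a median log2 fold change of −0.04. With the block in edgeR 5.20% of all genes fell and 1.65% rose, and, near that background, 1 of the 14 passed the threshold. This was Mbtps1, the protease that makes the first SREBP cleavage, at 73.9, 80.3 and 82.0 CPM in the control and 89.4, 86.6 and 90.5 CPM in the cholesterol samples (0.18, edgeR adjusted p = 0.0369), a call that DESeq2 with the block did not make (adjusted p = 0.360). Srebf1, which encodes the SREBP that favours fatty acid genes, was at 117, 90.6 and 63.4 CPM against 112, 94.0 and 124 CPM. Its pair differences of −0.06, 0.05 and 0.97 had the same order over pairs as those of Scd1 and Scd2, and a link between these genes was not tested. The adjusted p of Srebf1 with the block was 0.728 (edgeR, log2 fold change 0.31). Srebf2, which favours sterol genes, was at 418, 386 and 289 CPM against 148, 130 and 156 CPM, without overlap. Its log2 fold change of −1.33 with condition alone had an adjusted p of 0.534 in edgeR and of 3.84e-13 in DESeq2, and with the block these were 0.133 and 1.67e-07. Insig1, which retains SREBP in the endoplasmic reticulum and is named here after its values were seen, was at 117, 93.5 and 51.1 CPM against 26.8, 21.8 and 28.9 CPM (−1.71 with the block, adjusted p = 0.232 in edgeR and 0.00296 in DESeq2).

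**Figure D4:**
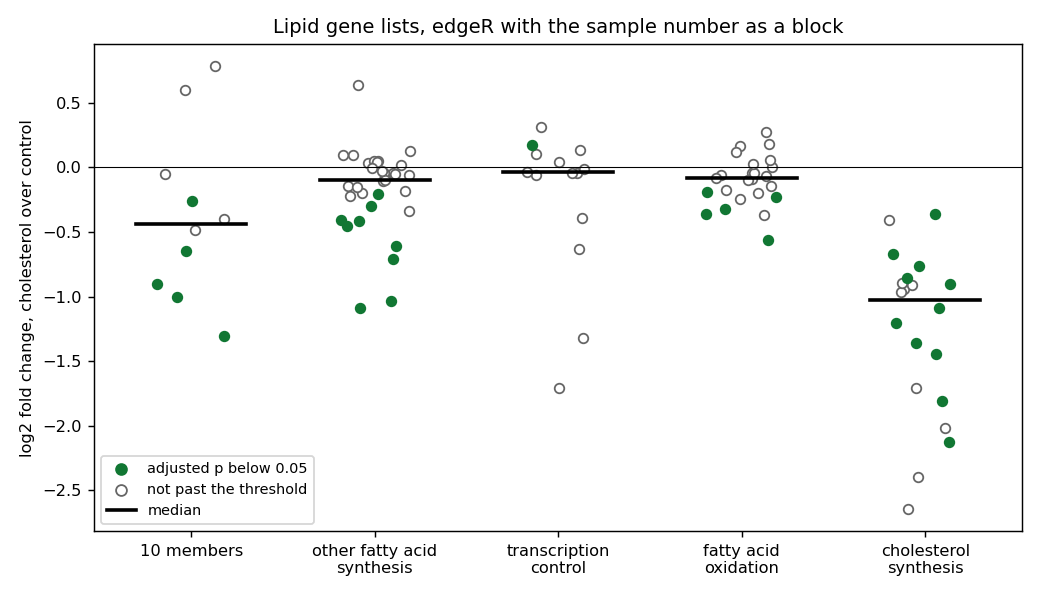
Log2 fold change, cholesterol over control, of every tested gene in the 5 lipid gene lists, from the edgeR model with the sample number as a block, with black lines for the medians and filled points for an adjusted p below 0.05. The median of the 10 members (−0.44) lies between that of cholesterol synthesis (−1.03) and those of the other lists (−0.10 for other fatty acid synthesis, −0.04 for transcription control and −0.08 for fatty acid oxidation).

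Beside the members, the median log2 fold change with the block was −1.03 for the 20 enzymes of cholesterol synthesis, of which 11 fell, and −0.08 for 24 genes of fatty acid oxidation, of which 5 fell, against 5.20% of all genes. DESeq2 with the block called 16 of the sterol enzymes and 1 of the oxidation genes lower, against 2.33% of all genes, so both counts depend on the tool. Its count for the oxidation genes is near that share. All 20 sterol enzymes had fold changes below zero, and 8 of the 10 fatty acid genes did. The lists differ in size and were not tested against each other.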

How the data were processed

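RNA-seq of 3 control and 3 cholesterol samples was analysed, with groups taken from the sample labels. One deposited table holds expected counts, estimated by the authors for each gene and not normalized, and in it 27.9% to 29.5% of the values of a sample were not whole (tolerance 0.001). The other deposited table holds normalized values, read here as FPKM since they and the counts imply lengths close to those of the annotated transcripts (median ratio 0.950 over 7796 genes). The submitters' processing notes name HISAT2 2.0.4, Bowtie2 2.2.5, RSEM 1.2.12, DESeq2 1.4.5 and GRCm38.p6. The annotation and filters are not given in the sources used here. Gene positions and overlaps are those of GENCODE on GRCm38.

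Tests had been planned for whole counts, so the expected counts were rounded. They were analysed with edgeR 4.0.16 in R 4.3.3 (TMM, filterByExpr with 10 counts and 15 in total, robust quasi-likelihood test, Benjamini-Hochberg over 11277 genes). Of the 17463 genes, 878 were at 0 in every sample. Group sizes of 3 allow an exact permutation test no p below 0.1, so none is given. No library was a copy of another (chi-square per degree of freedom at least 6.68). The sample numbers in the labels recur in both groups, and nothing states what they stand for. Deviations from the group means correlated by 0.689, 0.300 and 0.798 within numbers 1, 2 and 3 across genes, and the number was therefore used as a block in a second model. This choice rests on the same counts, and correlations between unlike numbers are not given. Alternative settings comprised the Wald test of DESeq2 1.42.0, edgeR with size factors from DESeq2, other filters, no robust estimation, limma 3.58.1 on log2(FPKM + 1) or log2(FPKM + 0.1), and samples left out in turn. DESeq2 with the block was added after seeing the data. The edgeR fits without and with the block were tested on simulated counts, and the other steps were not.

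The 10 genes and all gene lists were chosen with earlier results of these data known. Of the lists on synthesis and transcription control, the genes past the threshold in either edgeR model, or else the 3 with the smallest p, are named, and Srebf1 and Srebf2 in any case. Insig1 and Abcg1 lie outside this rule. Likeness is given for the nearest genes by root mean square difference. Every column was used.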

Additional observations from a re-analysis of the deposited data

How the results depend on the processing

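The direction of 8 genes (Acly, Aacs, Fasn, Elovl6, Elovl5, Scd1, Fads1 and Fads2) was the same under all 18 alternatives, and the median over the 10 genes stayed between −0.685 and −0.282, lowest without control 3 and closest to zero without control 1. Acaca ran from −0.299 to 0.129 with single samples left out, at 0.129 without control 1, 0.009 without control 2 and 0.086 without cholesterol 3, and was at 0.028 with the replicate block and both samples numbered 2 left out. Scd2 ran from −0.083, without control 3, to 1.064. The counts of calls depended on the model. With condition alone, edgeR called 0 of the 10 genes and 1 of all genes, and DESeq2 called 2 and 31. Leaving out single samples gave 1 to 8 calls over all genes (8 without control 3, 2 without cholesterol 3) and 0 among the 10. With the replicate number as a block, 5 of the 10 and 772 of all genes passed. Without the samples numbered 1, 2 or 3, the block gave 5, 4 and 7 of the 10 genes and 821, 296 and 726 over all genes, and Elovl5 was the gene lost without number 2, whereas Fasn and Fads1 were gained without number 3. DESeq2 with the block, added after seeing the data, called 4 and 289. The cause of these differences was not tested. Over the 18 alternatives the adjusted p ran from 1.98e-06 to 1 for Acly, from 8.99e-08 to 1 for Aacs, from 3.56e-12 to 1 for Elovl6, from 0.00273 to 1 for Elovl5, from 9.76e-28 to 1 for Fads1 and from 9.39e-25 to 1 for Fads2, in each case smallest with the block and without the samples numbered 3, a fit to 4 samples. The globin share of the counts involves no scaling factor, so another normalization does not apply to it. Each of the 10 genes had at least 42 counts in every sample.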
